A study of Drosophila melanogaster with 2 samples.

Results

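Summits of Slbo-eGFP ChIP-seq peaks that lay at promoters read in a single direction were examined. A summit, the base at which a peak is highest, was taken when it lay within 500 bp of a protein-coding start site of the Ensembl annotation and all coding start sites within that distance were on the same strand. This rule gave 2600 of the 8714 summits (29.8%) on the major chromosomes (X, 2L, 2R, 3L, 3R and 4, called the 6 arms here), in a list of 8786 peaks on the dm6 genome made from both replicates together. The remaining summits comprised 1213 divergent ones, with coding start sites on both strands within 500 bp, 205 with start sites of non-coding genes only, and 4696 outside promoters. The material was whole Drosophila melanogaster embryos, 8 to 24 h old, of a line named slbo-GFP with an insertion that targets slbo, and sex was not recorded. The age is that of the source label, since the separate age label of both samples holds a number of hours that does not match it. The 2 samples were biological replicates of this 1 group. Chromatin was sheared by sonication to a size range given as 200 to 800 without a unit, and the fusion protein was precipitated with an anti-GFP antibody per the description, although another label names the antibody as slbo. The possible control experiment that the labels mention was not used here, and whole embryos do not tell in which cells a site was bound. The rule found 2300 of 7124 summits (32.3%) in the list of replicate 1 alone and 1658 of 5382 (30.8%) in that of replicate 2 alone.

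Slbo is the Drosophila C/EBP protein, a basic leucine zipper factor best known for its part in border cell migration in the ovary. A core promoter is the stretch around the start site where RNA polymerase II assembles. In flies, promoters of broadly used genes often carry the DRE, which is bound by DREF and overlaps the element of the insulator protein BEAF-32, the site of M1BP, or motif 7 of the Ohler survey of fly core promoters, whereas many tissue-restricted genes carry a TATA box. The initiator lies at the start site itself, and GAGA elements are bound by GAGA factor.

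The sequences that follow show what lay at these summits. They were read from the RefSeq copy of the dm6 genome and are written 5′ to 3′ on the strand of the gene, which is given with the coordinates. The first 4 belong to the strongest members with the DRE core TATCGATA on arms 2L, 3L, 3R, 4 and X, and capitals mark the core. They serve ribosomal protein S29, the histone kinase JIL-1, an uncharacterised gene and the gamma subunit of translation elongation factor 1.
RpS29 (chr3R:9778046-9778075, plus strand): atcgtggaaaaTATCGATActgccaccccc
JIL-1 (chr3L:11093171-11093200, minus strand): cttgtcaacacTATCGATAacgatagctac
CG7006 (chr3R:24850574-24850603, plus strand): cactcttaagcTATCGATAaaagctataga
eEF1gamma (chr3R:29220120-29220149, plus strand): ggcctaggaaaTATCGATAtatcgccgtaa

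The next 4 hold the M1BP core GGTCACAC in capitals, in either orientation, in the strongest members with it on the same arms. They lie at the genes of a ubiquitin ligase, an RNA-binding protein, a phenylalanyl-tRNA synthetase subunit and ribosomal protein L27A.
Ube4B (chr2L:13019170-13019199, minus strand): tccatctttaaGTGTGACCacgccgcggcc
Rnp4F (chrX:5322714-5322743, minus strand): tattacgcactGGTCACACtgttataacga
beta-PheRS (chr3R:24252714-24252743, minus strand): tatggaaaataGTGTGACCctcctgcataa
RpL27A (chr2L:4458330-4458359, minus strand): cgccgccgggcGGTCACACtgctacaaccg

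The core of Ohler motif 7, CANCNCTA, is shown in the same way in capitals because its orientation followed that of the gene more often than not. Of the 6 strongest members with it on the same arms, CG33169, Sptr and CG12118 have it on the gene's strand and the other 3 have it on the opposite strand. The genes include sea, the mitochondrial citrate carrier, klar, needed for the placement of nuclei, and Sptr, sepiapterin reductase.
CG33169 (chr3L:22863715-22863744, plus strand): gagacattgttCAACACTAgtcggccggac
CG7379 (chr3R:17798342-17798371, minus strand): caccagccgacTAGTGTTGcaaagcacaac
sea (chr3R:11562394-11562423, minus strand): atctattgggaTAGAGTTGttcggactgct
klar (chr3L:441292-441321, minus strand): atactgccaaaTAGTGATGaattggatatt
Sptr (chrX:8464544-8464573, minus strand): aataacctggtCATCGCTAaaagtttacta
CG12118 (chrX:9196444-9196473, minus strand): attacttttctCATCCCTAatataggcgat

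The consensus of the C/EBP family, TTRYRYAA with R for A or G and Y for C or T, is in capitals in the next 4, since it is the site class of the tagged factor. Of these genes, aay encodes a phosphoserine phosphatase.
CG1635 (chr3R:31588508-31588537, plus strand): tgaagactttgTTGTGTAAagaacagtcag
CG31431 (chr3R:21870512-21870541, plus strand): gaacattcaatTTGCATAAaccaatacaca
CG9399 (chr3R:9574133-9574162, minus strand): tatttttataaTTGTGTAAttgtatgtgtt
aay (chr3L:9423060-9423089, plus strand): ggcttaaattgTTATGCAAatcagctagtt

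The last 4 are 101 bases centred on the summits of some of the strongest members, with the summit base in capitals. None of these windows held any of the 6 motifs searched around summits, and their A and T content was 69.3%, 77.2%, 62.4% and 76.2% in the order shown. The genes include amon, a proprotein convertase, and SLC5A11, a sodium-coupled solute transporter.
CG14100 (chr3L:19590569-19590669, minus strand): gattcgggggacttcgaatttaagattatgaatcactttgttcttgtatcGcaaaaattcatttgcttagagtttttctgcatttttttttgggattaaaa
CG18549 (chr3R:12449105-12449205, plus strand): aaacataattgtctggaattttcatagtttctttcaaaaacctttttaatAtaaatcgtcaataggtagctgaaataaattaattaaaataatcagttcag
amon (chr3R:26714319-26714419, minus strand): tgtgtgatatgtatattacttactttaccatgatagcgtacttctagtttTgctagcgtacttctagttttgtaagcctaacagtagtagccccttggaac
SLC5A11 (chr2L:8205233-8205333, minus strand): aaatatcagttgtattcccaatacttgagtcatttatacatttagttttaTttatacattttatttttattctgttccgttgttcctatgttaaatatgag

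The 2600 summits belonged to 2232 genes by nearest coding start site. A single summit was found at 1926 genes, 259 genes had 2, 37 had 3, 6 had 4, 3 had 5, and the most per gene was 6. Only 62 members had start sites of more than 1 coding gene within 500 bp. The genes ran on the plus strand for 47.7% of members (interval 45.7 to 49.6). Here and below, intervals on shares are 95% Wilson intervals, which cover counting error only and treat summits as independent. Depth per sample is unknown, because peak lists hold no read counts.

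The question of where a summit sat along the gene could be asked because the rule used the distance and not its sign. Of 2593 summits off the start site itself, 1991 (76.8%, interval 75.1 to 78.4) lay upstream, and 7 lay on it. The list of replicate 1 gave 81.9% and that of replicate 2 gave 81.0%, a mean of 81.4% ± 0.68 (SD, n = 2). The share differed from equal numbers on both sides (two-sided exact binomial p = 2.4e-172, over summits). The median summit was 82 bp upstream, 43.9% (interval 42.0 to 45.8) lay within 100 bp of the start site in either direction, and 75.4% within 250 bp. In bins along the gene, 808 summits lay 0 to 100 bp upstream and 704 lay 100 to 250 bp upstream, against 334 and 114 at the same distances downstream.

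**Figure D1:**
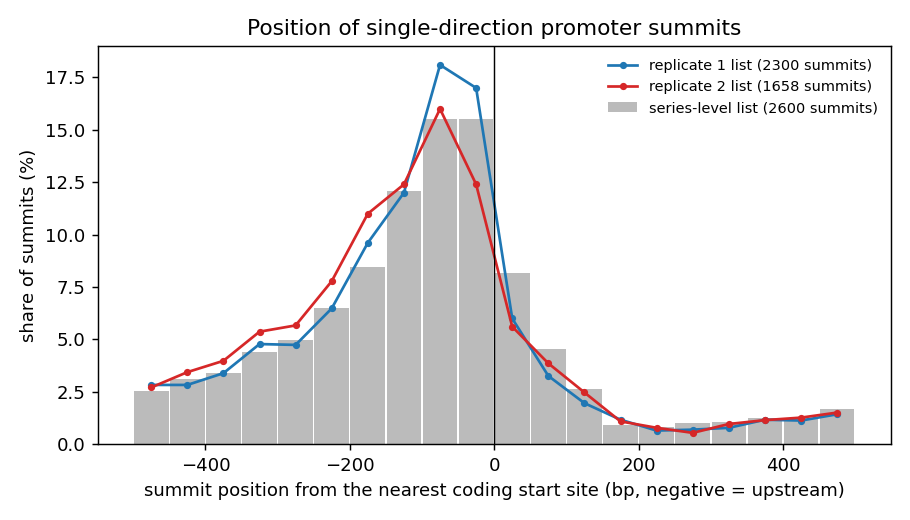
Share of summits (%) in bins of position along the gene, from the nearest coding start site in bp with upstream to the left. Bars give the 2600 members of the list made from both replicates, lines the 2300 and 1658 summits that the rule found in the lists of replicates 1 and 2, and all 3 are highest within 100 bp upstream.

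Of the upstream summits, 1278 (64.2%) lay between coding genes. A further 571 (28.7%) lay inside the gene's own span, upstream of an internal start site. Another gene was entered by 80 (4.02%) on the other strand and by 62 (3.11%) on the same strand. All 602 downstream summits lay inside the gene of their start site, as any downstream summit does unless the gene ends before it.

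The strength of a member was given by the authors' signal value, which is compared here only within a list. Members had a median signal of 133 (quartiles 88.1 and 247), divergent summits 202 and summits outside promoters 105, with a median of 121 over the list. Above that median were 1454 of 2600 members (55.9%), against 73.4% of divergent summits, a difference of -17.4 percentage points (two-sided Fisher's exact p = 1.6e-25), and against 40.9% of summits outside promoters, a difference of 15 points (p = 6e-35). In the lists of replicates 1 and 2, each against its own median, members reached 54.0% and 52.2%, divergent summits 67.9% and 64.9%, and summits outside promoters 41% and 43.2%. The order of the 3 classes was therefore the same in each replicate. The difference from summits outside promoters was 8.94 points in replicate 2 alone. Members made up 29.8% of the list and supplied 33 of the 100 strongest summits (interval 24.6% to 42.7%), which includes that share. They supplied 337 of the 1000 strongest (interval 30.8% to 36.7%) and 237 of the 1000 weakest (interval 21.2% to 26.4%).

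A summit counts as found in both replicates when its peak overlaps a peak in each replicate's own list by at least 1 bp, which held for 53.7% of all summits on the arms. Among members it held for 1492 of 2600 (57.4%, interval 55.5 to 59.3). A further 665 (25.6%) were found in replicate 1 only, 115 (4.42%) in replicate 2 only and 328 (12.6%) in neither. The share among divergent summits was 73.8%, a difference of -16.4 points (two-sided Fisher's exact p = 5e-23), and among summits outside promoters 46.8%, a difference of 10.6 points (p = 3.7e-18). Signal moved with being found: the median was 218 for members found in both replicates and 70.3 for those found in neither. Among summits above the list's median signal, the difference from divergent summits was -1.04 points (p = 0.41) and that from summits outside promoters turned to -2.01 points (p = 0.037, both Fisher's exact). Across the 1492 members found in both, the replicates' signals had a Spearman correlation of 0.877, given as a description over peaks that share the same 2 libraries.

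Peak width set the members apart in 2 kinds. Of the 2600, 1828 (70.3%) had peaks of exactly 330 bp, all with the summit in the middle. Over all peaks on the arms this width made up 74.1%, and 6452 of those 6454 had the summit in the middle. The 1828 members of this width had a median signal of 103, and 40.4% of them were found in both replicates. The other 772 members had a median signal of 348 and 97.7% were found in both.

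Signal was next read by place along the gene. Median signal was 149 at 250 to 500 bp upstream, 185 at 100 to 250 bp upstream and 139 at 0 to 100 bp upstream, and 93.8, 88.5 and 93.2 in the same distance ranges downstream from near to far. The medians in the list of replicate 1, over the members it found, were 100, 128 and 98.7 upstream and 64.5, 77.5 and 72.2 downstream. In replicate 2 they were 84.4, 120 and 79.1 upstream and 58.7, 65.3 and 76.2 downstream. Members 100 to 250 bp upstream thus had the highest median in the list and in both replicates. The share found in both replicates was 69.7%, 68.3% and 55.4% upstream and 34.1%, 43% and 41% downstream. Of the summits within 100 bp in either direction, 570 of 1142 (49.9%) were above the list's median, against 366 of 644 (56.8%) at 250 to 500 bp. That difference was -6.92 points (two-sided Fisher's exact p = 0.005), -8.30 in replicate 2 alone and -4.11 in replicate 1 alone, where it did not pass (p = 0.12), and it did not pass in the conservative list either (-2.90, p = 0.26).

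**Figure D2:**
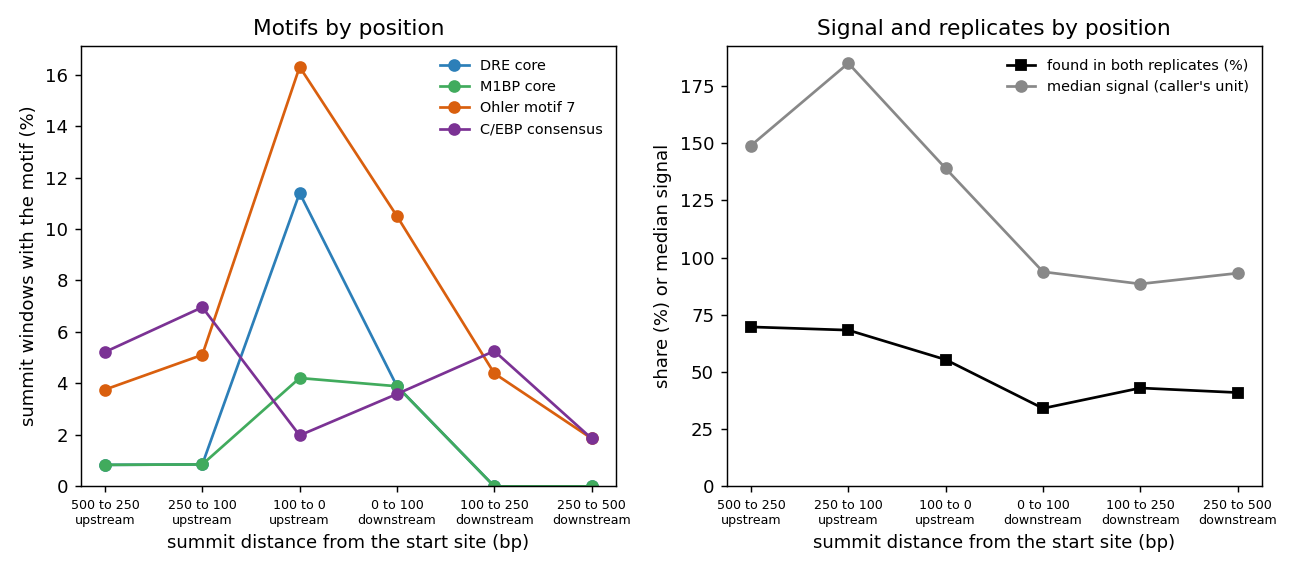
Members by position along the gene in 6 bins, from 500 bp upstream to 500 bp downstream of the coding start site. The left panel plots the share (%) of summit windows with each of 4 motifs, and the right panel the median signal and the share (%) found in both replicates. On the left, the DRE core stands at 11.4% in the bin 0 to 100 bp upstream and under 1% further upstream.

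Sequence was compared between the 101 bases around each summit and a window of the same width centred 450 bp further upstream along the same gene. The DRE and M1BP cores and motif 7 were in more summit windows than upstream flanks. Their shares at the summits were, however, near or below those in windows of the same width around all annotated coding start sites, which were 5.48%, 5.66% and 8.71%, a comparison that was not tested. The rule keeps summits close to start sites, and for upstream summits the flank lies further away. The ratios to the flank therefore cannot separate the summit from closeness to a start site. The DRE core was in 115 of 2600 summit windows (4.42%, interval 3.70 to 5.28) and 0.923% of flanks, a ratio of 4.79 (two-sided exact McNemar test, adjusted p = 5.7e-15 over 6 motifs). In the lists of replicates 1 and 2 it was in 5.91% and 3.08% of summit windows and 1.00% and 1.09% of flanks, ratios of 5.91 and 2.83. With a downstream flank in place of the upstream one the ratio was 19.2. The M1BP core was in 57 windows (2.19%) and 0.231% of flanks, a ratio of 9.50 (exact test, adjusted p = 3.3e-11). Its ratios in the replicates were 7.88 and 5, from 2.74% and 1.81% of summit windows. It was 3.68 with promoters cut at 250 bp, 4.38 with the downstream flank and 4.67 within 25 bp of the summit, and it passed in each. Motif 7 was in 229 windows (8.81%) and 3.12% of flanks, a ratio of 2.83 (exact test, adjusted p = 1.5e-17), with 3.13 and 2.76 in the replicates. At least 1 of these 3 motifs was in 364 summit windows (14.0%), and 37 windows held 2 or more, so 2236 members (86.0%) had none of them.

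The consensus of the tagged factor's family had no concentration there that passed the test. TTRYRYAA was in 111 summit windows (4.27%, interval 3.56 to 5.12) and 5.50% of flanks, a ratio of 0.776 that did not pass (exact test, adjusted p = 0.056). The replicates had 4.87% and 5.19% at summits against 4.61% and 4.95% in flanks, ratios of 1.06 and 1.05, so the sign was not the same as in the list of both. The E-box CAGCTG was in 6.27% of summit windows and 4.62% of flanks, a ratio of 1.36 (exact test, adjusted p = 0.016). Against a flank 450 bp downstream its ratio was 0.988 (exact test, adjusted p = 1). The GAGA element GAGAGAG was in 1.88% and 2.12%, a ratio of 0.891 (exact test, adjusted p = 0.62). A and T made up 59.9% of summit windows, 60.9% of upstream flanks and 53.4% of downstream flanks, and the part of composition in these ratios was not tested.

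The windows around coding start sites numbered 13945, 1 per gene, and held the E-box in 9.30%, the GAGA element in 1.17% and the C/EBP consensus in 3.21%. At members' summits the share was lower for the E-box, at 6.27%. It was higher for the GAGA element, at 1.88%, and the C/EBP consensus, at 4.27%, and these comparisons were not tested. Around all 8714 summits the shares were 2.40% for the DRE core, 1.23% for the M1BP core, 5.89% for motif 7, 4.56% for the E-box, 1.33% for the GAGA element and 5.43% for the C/EBP consensus. A match on either strand counted, and matches of different motifs could overlap. A match is a stretch of letters and not a site shown to be bound.

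The motifs sat at different distances from the start site. The median DRE core was centred 39 bp upstream of the start site, the M1BP core 25 bp, motif 7 32.5 bp and the E-box 40.5 bp. The C/EBP consensus lay further out, with a median of 151 bp, and the GAGA element at 128 bp. By bin, the DRE core was in 11.4% of members 0 to 100 bp upstream and 0.852% of those 100 to 250 bp upstream, while the C/EBP consensus was in 1.98% and 6.96%. Motif 7 was in 16.3% and 5.11% of the same bins. Among the 275 members more than 100 bp downstream, 0 held the DRE core and 0 the M1BP core, which allows a share of up to 1.09% for each.

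**Figure D3:**
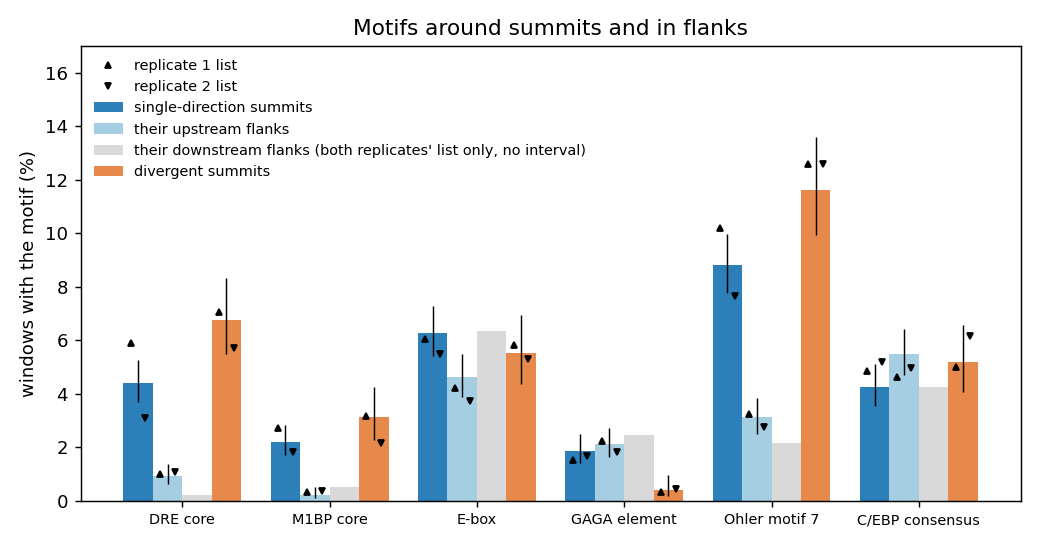
Share of windows (%) with each of the 6 motifs at the members' summits, in their flanks and at divergent summits, with 95% Wilson intervals and triangles for the lists of replicates 1 and 2 (none for downstream flanks). The DRE core stands at 4.42% at summits and 0.923% in upstream flanks, and the C/EBP consensus at 4.27% and 5.50%.

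Signal was set beside the motifs of the members. The median signal was 125 with the DRE core and 134 without, 127 and 133 for the M1BP core, 143 and 132 for motif 7, 123 and 134 for the E-box, and 94.6 and 134 for the GAGA element. For motif 7 the order was the other way in the replicates, at 96.3 with and 97.8 without in replicate 1 and 77.3 and 86.7 in replicate 2. The share found in both replicates was lower with each of these 5 motifs than without, at 47.8% against 57.8% for the DRE core, 49.1% against 57.6% for the M1BP core, 51.5% against 58% for motif 7, 49.1% against 57.9% for the E-box and 42.9% against 57.7% for the GAGA element. With the C/EBP consensus the median signal was 173, against 132 without. Of members with it 69.4% were found in both replicates, and of those without 56.9%, the reverse order. Within the replicates, members with that consensus had medians of 111 and 94.3, and those without 96.5 and 84.6. These medians are descriptions and were not tested. The motifs also differed by position. The C/EBP consensus was most frequent 100 to 250 bp upstream (6.96%), where the median signal of members was 185. The DRE core was most frequent 0 to 100 bp upstream (11.4%), where it was 139. The part of position in the medians by motif was not tested.

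The strongest member with the DRE core lay 73 bp upstream of Alg3, a mannosyltransferase of N-glycan assembly, with a signal of 943 and 539 and 404 in replicates 1 and 2. It was followed by Ufc1, the conjugating enzyme of the ubiquitin-like UFM1, at 722 (480 and 241), the uncharacterised CG1827 at 617 (340 and 282) and RpS29 at 609 (377 and 238). With the M1BP core, the leading members were CG34195 at 561 (383 and 183), eEF1alpha1, the elongation factor that brings aminoacyl-tRNA to the ribosome, at 453 (271 and 182), Ube4B at 350 (252 and 98.4) and Rnp4F at 346 (226 and 120). Replicate 1 gave the higher value for each of these 8, in lists whose scaling for depth is not stated.

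Members with motif 7 were led by CG33169 at 709 (424 and 290), CG7379 at 672 (439 and 223), sea at 667 (351 and 317) and klar at 630 (354 and 275). Those with the C/EBP consensus reached higher, with CG1635 at 1638 (955 and 690), Tina-1 at 1636 (959 and 687), CG31431 at 1192 (643 and 554) and CG9399 at 1183 (677 and 503). The E-box was led by Hpf1, the partner of the poly(ADP-ribose) polymerase PARP, at 1245 (692 and 555), then CG9399, CG3009 at 1156 (623 and 530) and CG4497 at 860 (534 and 325). The GAGA element had a single strong member, CG1907 at 1151 (695 and 469), ahead of the gap junction gene Inx7 at 337 (180 and 161), Mapmodulin at 335 (230 and 107) and CG15894 at 332 (175 and 153).

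Because each of these genes has 1 direction, the strand of a motif could be compared with it. A summit window was counted once for each strand on which it held the motif, however many matches it had there. Motif 7 was on the gene's strand in 174 of 232 such counts (75%, interval 69.1 to 80.1), with 74.9% and 76.4% in the lists of replicates 1 and 2. This differed from equal numbers (two-sided exact binomial test, adjusted p = 3.6e-14 over 3 motifs). The M1BP core was on the gene's strand in 38 of 57 (66.7%, exact test, adjusted p = 0.025), but at 58.7% (adjusted p = 0.31) and 56.7% (adjusted p = 0.85) in the lists of replicates 1 and 2. The GAGA element was there in 26 of 49 (53.1%, exact test, adjusted p = 0.78), and in 45.7% and 46.4% in the replicates. The DRE core and the E-box read the same on both strands.

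Divergent summits, the class most like the members, held more DRE and motif 7 cores and fewer GAGA elements. The DRE core was in 4.42% of members and 6.76% of divergent summits, a ratio of 0.654 (two-sided Fisher's exact test, adjusted p = 0.0085 over 6 motifs), and motif 7 in 8.81% and 11.6%, a ratio of 0.758 (adjusted p = 0.014). In the list of replicate 1 alone the ratios were 0.836 (exact test, adjusted p = 0.38) and 0.808 (adjusted p = 0.093), and in that of replicate 2 alone 0.537 (adjusted p = 0.0048) and 0.606 (adjusted p = 0.00027). With promoters cut at 250 bp they were 0.945 and 0.982, neither of which passed (exact test, adjusted p = 0.9 for both). The GAGA element was in 1.88% of members and 0.412% of divergent summits, a ratio of 4.57 (exact test, adjusted p = 0.00099), with 1.52% against 0.333% in replicate 1 and 1.69% against 0.432% in replicate 2. Above the list's median signal its ratio was 3.47 and did not pass (exact test, adjusted p = 0.11). The M1BP core (ratio 0.700, adjusted p = 0.14), the E-box (1.14, adjusted p = 0.38) and the C/EBP consensus (0.822, adjusted p = 0.25) did not pass in exact tests. Divergent summit windows held 63.8% A and T, against 59.9% in members.

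The members were next set against single-direction promoters where no summit was listed. Taking 1 start site per gene, that of most transcripts, 8982 coding genes had no coding start site on the other strand within 1000 bp. Of these, 1608 (17.9%) had a member summit within 500 bp, 1459 (16.2%) in the list of replicate 1 and 1037 (11.5%) in that of replicate 2, a mean of 13.9% ± 3.32 (SD, n = 2). In both replicates' lists there were 949 (10.6%). Of the 7374 promoters without a summit, 4953 (67.2%) had a summit in the deposited ranked list, which also keeps peaks under the threshold. For these, being without a summit means below that threshold, and the rest had no such summit in the ranked list either.

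Promoters with a summit carried more DRE, M1BP, motif 7, E-box and GAGA matches within 100 bp of the start site, and fewer TATA boxes. The DRE core was in 9.51% of promoters with a summit (interval 8.18 to 11.0) and 3.82% without, a ratio of 2.49 (two-sided Fisher's exact test, adjusted p = 2.6e-18 over 8 motifs). In the lists of replicates 1 and 2 the share with a summit was 10.8% and 8.10%. Motif 7 was in 16.2% and 6.69%, a ratio of 2.43 (exact tests, adjusted p = 7.8e-30), the M1BP core in 7.96% and 3.49%, a ratio of 2.28 (adjusted p = 2.6e-13), the GAGA element in 8.08% and 3.77%, a ratio of 2.14 (adjusted p = 4.7e-12), and the E-box in 16.6% and 10.5%, a ratio of 1.58 (adjusted p = 3.7e-11). All 5 passed in each replicate's list as well, at ratios between 1.43 and 2.91.

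The TATA box TATAAA, starting 45 to 15 bp upstream on the gene's strand, was in 5.10% of promoters with a summit (interval 4.13 to 6.29) and 12.1% of those without, a ratio of 0.421 (exact test, adjusted p = 2.6e-18), with 4.66% and 5.40% in the lists of replicates 1 and 2. The C/EBP consensus was in 5.53% and 7.51%, a ratio of 0.737 (exact test, adjusted p = 0.0053), but in replicate 2 alone it was 0.818 (adjusted p = 0.12). That count covers only 100 bp on either side of the start site. It stops short of 151 bp upstream, the median position of this consensus around members' summits. The initiator TCAGT, starting within 10 bp of the start site, was in 18.3% and 16.7%, a ratio of 1.10 that did not pass (exact test, adjusted p = 0.12) and was 0.965 in replicate 1. The genes with a summit were longer, at a median of 4.25 kb against 1.90 kb, and 41.3% of them had more than 1 annotated start site, against 21.6%. The part of gene length and of the number of start sites in these differences was not tested, except that among genes with 1 start site all 8 motifs kept their direction and their side of the threshold, with the TATA box at a ratio of 0.398 and the DRE core at 2.57.

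**Figure D4:**
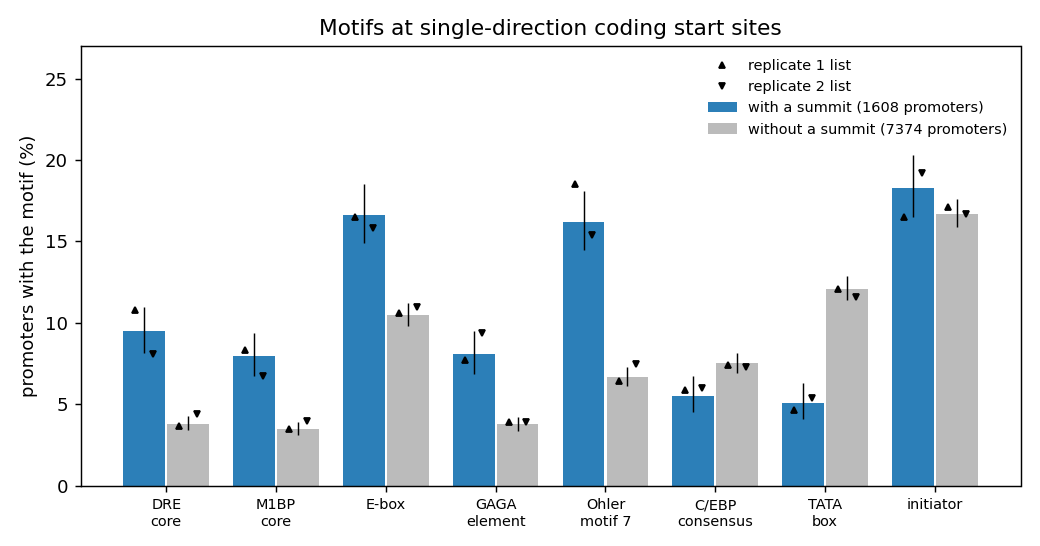
Share (%) of single-direction promoters that hold each of 8 motifs, for the 1608 with a summit and the 7374 without. Bars give the list of both replicates with 95% Wilson intervals and points the lists of replicates 1 and 2, with the TATA box at 5.10% and 12.1% and motif 7 at 16.2% and 6.69%.

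On the X, 303 of 1433 single-direction promoters (21.1%, interval 19.1 to 23.3) had a summit, against 1305 of 7549 (17.3%) on the autosomes. The difference was 3.86 points (two-sided Fisher's exact p = 0.00062), with 19.7% against 15.6% in replicate 1 and 14.2% against 11.0% in replicate 2. With promoters cut at 250 bp it was 1.66 points and did not pass (exact p = 0.11). The large autosomal arms ranged from 15.4% on 3R to 19.2% on 2R, and chromosome 4 had 4 of 60 (6.67%, interval 2.62 to 15.9).

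The gene families were read against the share of 17.9% over all single-direction genes, and no test was made of them. Cytosolic ribosomal protein genes stood highest, with a summit at 23 of 38 (60.5%), and at 24 and 21 in the lists of replicates 1 and 2. RpL23A had 671 (406 and 275), RpS29 609 (377 and 238) and RpS4 395 (226 and 173). These 3 summits lay 87, 4 and 62 bp upstream.

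Genes for basic leucine zipper factors, the family of Slbo itself, had a summit at 7 of 15 (46.7%), and at 7 and 5 in the replicates' lists. Atf3 had 1752 (872 and 892), Xbp1, a factor of the unfolded protein response, 561 (343 and 223), and Pdp1, a clock and growth factor, 464 (232 and 224). Other families of the translation machinery were nearer to the whole: 4 of 11 aminoacyl-tRNA synthetase genes (36.4%), 5 of 15 mitochondrial ribosomal protein genes (33.3%) and 6 of 23 initiation factor genes (26.1%). In the lists of replicates 1 and 2 the counts were 4 and 3, 5 and 2, and 7 and 3 in the same order. Among the synthetase genes counted, beta-PheRS had 297 (196 and 95.5), and among the mitochondrial ribosomal protein genes counted mRpL9 had 161 (98.8 and 54.9). Only 15 of the 73 coding genes of the mitochondrial ribosome had no coding start site on the other strand within 1000 bp. The far stronger member mRpL41, at 4161, was not among the 5 counted with a summit.

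Further housekeeping families had 6 of 22 proteasome genes (27.3%), led by the deubiquitinase Rpn11 at 155 (98.3 and 58.2), and 3 of 10 Rab GTPase genes (30.0%), led by the recycling endosome gene Rab11 at 244 (160 and 82.6). The vacuolar proton pump had 4 of 20 (20%), with Vha68-2 at 212 (148 and 67.4). The respiratory chain had 6 of 34 (17.6%), with ND-B17 at 293 (174 and 107), and Mediator 1 of 7 (14.3%), MED4 at 438 (266 and 173). In the lists of replicates 1 and 2 the proteasome had 6 and 2, Rab GTPases 3 and 2 and the proton pump 3 and 3. The respiratory chain had 5 and 2 there, and Mediator 2 and 2, more than in the list of both. Over all single-direction genes the share in these lists was 16.2% and 11.5%.

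Families of restricted use were low. Cytochrome P450 genes had 8 of 71 (11.3%), and 6 and 5 in the lists of replicates 1 and 2. They were led by Cyp6a2, known from insecticide resistance, at 205 (120 and 87.0). Odorant and gustatory receptor genes had 2 of 103 (1.94%), cuticular protein genes 1 of 65 (1.54%) and serpin genes, which encode protease inhibitors, 0 of 19, which allows a share of up to 15.8%. None of the receptor, cuticular or serpin genes had a summit in either replicate's own list. A ranked peak below the threshold lay at 55 of the receptor genes, 54 of the cuticular protein genes and 12 of the serpin genes.

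The strongest members were looked at for the same motifs. Among the 20 strongest found in both replicates, with signals from 1752 to 5564, 19 lay upstream and 8 within 100 bp of the start site. None of the 20 held any of the 6 motifs within 50 bp of the summit. Over all members, 76.8% of those off the start site lay upstream and 43.9% lay within 100 bp. Each motif alone was in 1.88% to 8.81% of all members' windows, and the share with any of the 6 was not counted. The peaks of these 20 ranked at 66 or higher in the list of replicate 1 and at 52 or higher in that of replicate 2. The uncharacterised gene CG14100 had the highest, a peak at chr3L:19590433-19590808 with its summit 95 bp upstream and a signal of 5564, and 3040 and 2561 in replicates 1 and 2. Ugalt, the Golgi transporter of UDP-galactose, followed at chrX:2703708-2704082, 44 bp upstream, with 4671 (2411 and 2278). mRpL41, a protein of the mitochondrial ribosome, had 4161 (2306 and 1931) at chr2R:15217568-15217990, and eIF6, which keeps the large ribosomal subunit from joining early, had 3676 (1984 and 1708) at chr2R:23850219-23850572, inside another gene on the same strand.

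PNPase, a mitochondrial RNA-degrading enzyme, had 2800 (1504 and 1312), and the glutathione S-transferase GstE13 had 2757 (1568 and 1203). GstE13 was the single downstream summit of the 20, at 69 bp. The membrane transporter MFS10 had 2325 (1314 and 1017), the casein kinase gene gish 2201 (1239 and 966) and Fkbp14, a prolyl isomerase of the endoplasmic reticulum, 2133 (1218 and 951).

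Next came CG1888 at 2092 (1133 and 974), CG18549 at 2074 (1146 and 941), amon at 2067 (1115 and 967) and SLC5A11 at 2049 (1205 and 848). The transcription factor gene Sox14, which acts in the ecdysone response, had 2029 (1131 and 900), and moody, a receptor of the glial blood-brain barrier, had 2000 (1165 and 841). The wing vein gene px had 1995 (1129 and 875), CG17896 1986 (1027 and 968), CG11857 1939 (1073 and 873) and TRAM, a protein of the translocation channel for secreted proteins, 1753 (943 and 826). Atf3, a bZIP factor at chrX:1275307-1275694 with its summit 199 bp upstream, closed the 20 at 1752 and was the only one with the higher value in replicate 2.

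**Figure D5:**
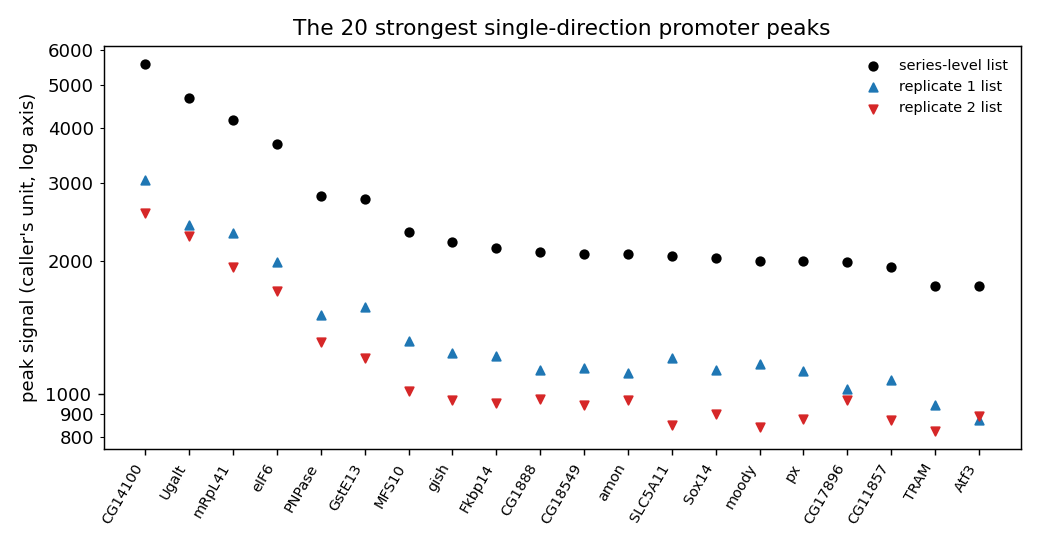
Signal of the 20 strongest members found in both replicates, by gene, in the list of both replicates and in the lists of replicates 1 and 2. The values run from 5564 at CG14100 to 1752 at Atf3, and the lists are not stated to be scaled for depth.

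Members far from the start site could be strong as well. More than 250 bp upstream, CG17896 at 484 bp was followed by Rtnl1, a reticulon of the endoplasmic reticulum, at 261 bp with 1750 (936 and 823), papi, a piRNA pathway protein of mitochondria, at 300 bp with 1528 (898 and 632), and dnc, the cAMP phosphodiesterase dunce, at 280 bp with 1303 (693 and 607). More than 250 bp downstream, CG31612 at 490 bp had 1036 (550 and 486), the glycosyltransferase gene egh at 364 bp 931 (478 and 455), the ecdysone-induced Eip63F-1 at 468 bp 765 (417 and 345) and CG8128 at 468 bp 705 (429 and 281). All 8 were found in both replicates.

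Members lay right up to the limit of 500 bp. Just inside it, at exactly 500 bp, were Scsalpha1 with a signal of 210, foxo with 128 and Inos with 71.4. Just outside were a summit at ph-p, a Polycomb group gene, 501 bp away with 1158, and summits at px and CG43078, each 502 bp away, with 93.3 and 78.9.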

How the data were processed

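ChIP-seq peak lists of 2 biological replicates (1 group) were used as deposited. Per the labels, the genome is dm6; for the aligner, the peak caller and their settings, names and versions were not given in the sources used here. Signal is a value per peak from the authors' caller, with no stated scaling for depth, so it was compared only within a list. Scores in the deposited lists rest on the irreproducible discovery rate, and all scores in the thresholded lists were at least 830. All 8786 thresholded peaks were in the ranked list taken as their source. No read counts are given, so depth per sample is unknown, and the precision is given by 95% Wilson intervals that cover counting error only.

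Start sites came from Ensembl release 115 and sequence from the RefSeq copy of the build. Shares were tested with two-sided exact binomial, McNemar and Fisher tests with Benjamini-Hochberg adjustment over motifs, called at 0.05, in Python 3.11.15 with numpy 2.4.6, scipy 1.17.1 and pandas 2.3.3; figures used matplotlib 3.10.9. The tests treat summits or genes as independent, so their p-values describe the spread over promoters and not that between biological replicates, and each replicate's own list gives the spread with n = 2. The scripts were tested on simulated data with planted motifs.

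The named genes are the 20 strongest members found in both replicates, the 4 strongest with each motif and the 4 strongest more than 250 bp upstream or downstream. They also include up to 3 members per gene family by signal, among the genes counted with a summit for that family. The 3 genes with most members and the 3 summits nearest to the limit on either side complete them. Where the motif sequence of a named member was not printed, the next strongest with that motif on arms 2L, 3L, 3R, 4 and X was taken. The printed windows centred on summits came from the 20 strongest members, but not by order of signal alone. Stronger members on these arms, such as Ugalt with a signal of 4671 and PNPase with 2800, were passed over. Members, motifs and families were chosen with earlier results of these data known. The alternatives were other peak lists, thresholds, distances, windows, flanks, overlaps and start sites; those of peak width, 1 summit per gene and genes with 1 start site were chosen after seeing the data.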

Additional observations from a re-analysis of the deposited data

How the results depend on the processing

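Of the alternative values, 227 kept their direction and side of the threshold, 31 kept the direction and lost the call, and 17 turned direction or came to no difference, 14 of them for results that passed in neither setting; the cause was not tested. These 14 were the C/EBP ratio to the flank (1.05 and 1.06 without one replicate, 1 with the downstream flank, 1.19 in peaks of another width than 330 bp), GAGA to the flank (1.11 at 250 bp), the ratios to divergent summits of M1BP (1.04 above the list's median signal, 2.68 in peaks of another width), E-box (0.816) and C/EBP (1.12, both within 25 bp), the initiator (0.949 above the median signal, 0.965 to 1.15 without one replicate), and the GAGA strand share (45.7% to 46.4% without one replicate, 49.4% within 100 bp). The ratio of the E-box to its flank was 0.988 with the downstream flank, 1.30 in the conservative list, 1.28 above the list's median signal, 1.10 within 25 bp and 1.36 in peaks of another width. Against divergent summits, the DRE and motif 7 ratios were 0.680 and 0.797 above the median signal, 0.945 and 0.982 at 250 bp, 0.674 and 0.777 in peaks of another width, 0.729 and 0.817 with the strongest summit of each gene, and 0.537 to 0.836 and 0.606 to 0.808 without one replicate; motif 7 was 0.714 within 25 bp. The GAGA ratio was 3.47 above the median signal, 2.80 within 25 bp and 8.04 in peaks of another width. The C/EBP ratio with against without a summit was 0.904 above the median signal, 0.785 at 250 bp, 0.820 with the most upstream start site and 0.796 to 0.818 without one replicate. The M1BP core was on the gene's strand in 64.2% (conservative list), 55.2% (above the median signal), 64.8% (strongest summit of each gene), 27.3% (another width) and 56.7% to 58.7% (without one replicate). The difference in being found in both replicates was -1.04 points against divergent and -2.01 against outside summits above the median signal. The near against far difference in signal was -2.90 in the conservative list and -8.30 to -4.11 without one replicate, and that of the X was 1.66 at 250 bp. The upstream share was 76.8% to 88.6% throughout. No paired analysis was possible because the samples form 1 group. With 2 replicates and no read counts, differences between biological replicates could not be tested.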

Other observations

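Some genes had several members. Rtnl1 had 5 members, at 1750 (936 and 823 in replicates 1 and 2), 1010 (542 and 466), 336 (166 and 168), 324 (184 and 143) and 122, the last of which was found in replicate 1 only, at 93.7. All 5 lay upstream of their start sites, 4 of them 226 to 292 bp upstream and inside the gene. The gene dnc also had 5, at 1303 (693 and 607), 557 (323 and 235), 289 (167 and 129), 127 (66.3 and 61.1) and 104, the last in replicate 1 only, at 70.3. Its members at 127 and 104 lay 410 bp upstream and 180 bp downstream of the same start site. SNF4Agamma, the gamma subunit of the AMP-activated kinase, had the most members, 6, but their signals were between 56.8 and 112, and none was found in both replicates.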
